A study of Mus musculus with 6 samples.

Results

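The genes of the unfolded protein response and of the integrated stress response were followed in mouse fibroblast-like synoviocytes, the connective tissue cells that line the joint, after delivery of Epas1 by an adenovirus. The list held 43 genes chosen by name for their roles, with earlier results of these data known, and 42 were measured among 22180 genes. Pdia4, a protein disulfide isomerase, was on a probe set that carries 2 gene symbols and was not analysed here. Total RNA of cells grown out of C57BL6 knee synovium, at passages 4 to 8, was measured on 6 Affymetrix whole-transcript arrays. Empty adenovirus had been given to the cells of 3 arrays (Mock). The cells of the other 3 had been given adenovirus encoding Epas1, the oxygen-regulated transcription factor HIF-2alpha (Ad-Epas1). In both groups the dose was an MOI (multiplicity of infection, infectious virus particles per cell) of 800, exposure lasted 2 h and incubation 24 h, so every value below compares infected with infected cells. No uninfected cells were among the 6 samples. The series calls the replicates biological and names no separate animals or cultures for them. The p-values therefore rest on the spread among these 6 samples, which may be technical in part.

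The endoplasmic reticulum (ER) folds secreted and membrane proteins. When unfolded protein builds up there, 3 sensors in its membrane respond. ATF6 is cut to release a transcription factor, IRE1alpha (Ern1) splices the mRNA of the transcription factor XBP1, and PERK (Eif2ak3) phosphorylates the translation factor eIF2alpha. Phosphorylated eIF2alpha slows protein synthesis and favours translation of ATF4, which is also how the integrated stress response works when other kinases sense amino acid shortage, haem shortage or viral RNA. ATF6 and XBP1 share many target genes, chiefly chaperones and the machinery of ER-associated degradation. ATF4 drives amino acid synthesis and transport, tRNA charging, and feedback on eIF2alpha. Fibroblasts secrete large amounts of matrix protein and express ER chaperones highly at rest. Arrays measure transcripts, so cutting of ATF6, splicing of Xbp1, phosphorylation of eIF2alpha and translation of Atf4 were not measured.

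Epas1 stood at 8.67, 8.71 and 8.51 (log2 expression) on Mock replicates 1, 2 and 3 and at 13.14, 13.15 and 13.11 on Ad-Epas1 replicates 1, 2 and 3, in accord with the labels. One array stood apart in its macrophage transcripts. The labels give under 1% CD14+ cells by flow cytometry, yet Cd14 lay at 10.42, 9.99 and 10.14 on the Mock arrays and at 11.92, 11.40 and 8.62 in Ad-Epas1. The median of 20 macrophage markers lay between 10.98 and 11.56 on the other arrays and at 7.14 on Ad-Epas1 replicate 3, where 8 of the 20 were below 6.62, the level under which 95% of olfactory and vomeronasal receptor genes lay. The macrophage gene Lyz2 stood at 12.94, 12.81 and 12.75 on the Mock arrays, at 12.86 and 12.78 on Ad-Epas1 replicates 1 and 2 and at 7.15 on replicate 3. Of 14 fibroblast markers 2 rose (Pdpn by 0.73 and Prg4 by 0.55 on the log2 scale), 3 fell (Pdgfrb, -1.20; Cdh11, -1.26; Col3a1, -0.89) and 9 did not pass. Thy1 (CD90), the marker used for the flow cytometry, stood at 11.17, 11.06 and 11.06 in Mock and at 10.40, 10.60 and 10.98 in Ad-Epas1, lower on all 3 arrays without passing (-0.44, adjusted p = 0.0893). Over all arrays 4 of the 20 macrophage markers fell, namely C1qa (-2.05), Mrc1 (-2.84), Aif1 (-0.60) and C1qc (-2.31 on the log2 scale). In bulk RNA, fewer cells of a type and less RNA per cell cannot be told apart. Markers of proliferating cells were lower in Ad-Epas1, where all 7 measured fell (log2 fold change -2.96 for Ccnb2, -1.58 for Mcm5, -1.29 for Tk1 and -2.58 for Mki67). The part of these marker groups in the results below was not tested. Fits without Ad-Epas1 replicate 3 leave out a whole array and so cannot test it.

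The largest rise among the members was that of Ppp1r15a and the largest fall that of Phgdh. Of the 42 measured members, 13 rose, 6 fell and 23 did not pass (limma over all genes, Benjamini-Hochberg adjusted p under 0.05). That is 31.0% rising and 14.3% falling, beside 6.57% rising and 9.75% falling, or 16.3% in either direction, of all genes tested. The list was chosen with earlier results of these data known, so its shares are not independent of them. All 42 members lay above the median level of all genes. Among the 11090 genes above that level, 9.77% rose and 16.4% fell in the same fit. The median log2 fold change of the members was 0.12, against 0.05 for all genes. The 3 arrays of one group did not overlap the 3 of the other for 29 members (69.0%), beside 39.7% of all genes.

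**Figure D1:**
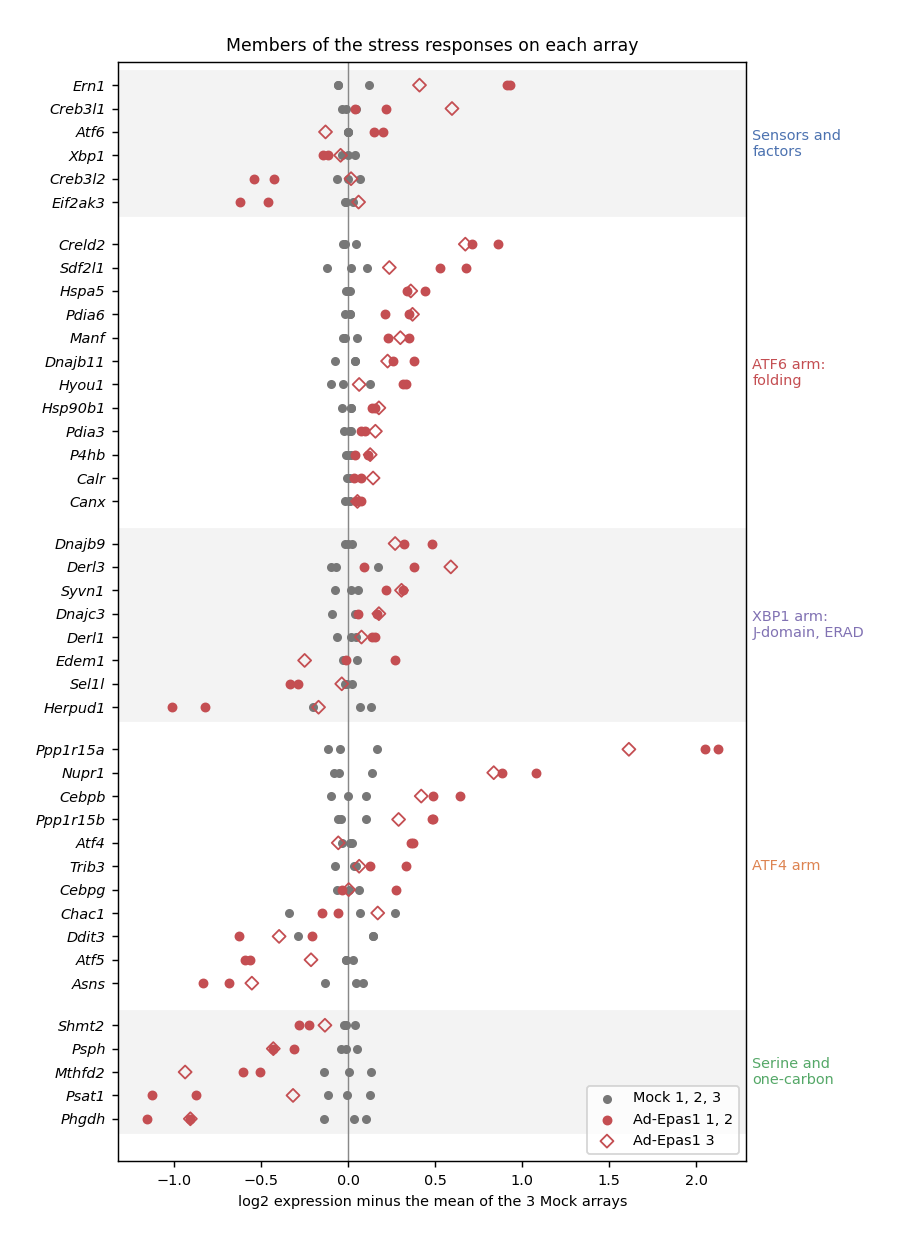
Log2 expression of the 42 measured members on each array, minus the mean of the 3 Mock arrays (horizontal axis), with members grouped by role and ordered by their difference. Grey points are Mock arrays, filled red points Ad-Epas1 replicates 1 and 2, and open diamonds Ad-Epas1 replicate 3; Ppp1r15a lies farthest to the right, the serine and one-carbon enzymes lie left of 0, and the diamonds of Herpud1 and Creb3l2 lie within the range of the Mock points.

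Most changes were small. Only Ern1, Creld2, Ppp1r15a and Nupr1 rose, and only Asns, Psat1, Phgdh and Mthfd2 fell, by at least 1.5-fold. The calls depended on the arrays entered, with 3 to 14 members rising and 2 to 11 falling when 1 array was left out. Creld2, Ppp1r15a, Nupr1, Asns and Phgdh passed in each of these 6 fits. Mthfd2 lost its call without Mock replicate 3, Hspa5 and Cebpb without Mock replicate 2 or 3, and Psph without either of those or without Ad-Epas1 replicate 2. Ern1 and Ppp1r15b lost theirs without any one of Mock replicates 2 and 3 and Ad-Epas1 replicates 1 and 2, and Pdia6 without any Mock array or Ad-Epas1 replicate 2. Manf, Sdf2l1, Dnajb11, Dnajb9, Atf5 and Psat1 lost theirs without any array but Ad-Epas1 replicate 3, and Syvn1 without any array at all. No called member turned its direction in any alternative that was run. For all 19 called members the groups did not overlap, so leaving out or weighting arrays could not have turned it.

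**Figure D2:**
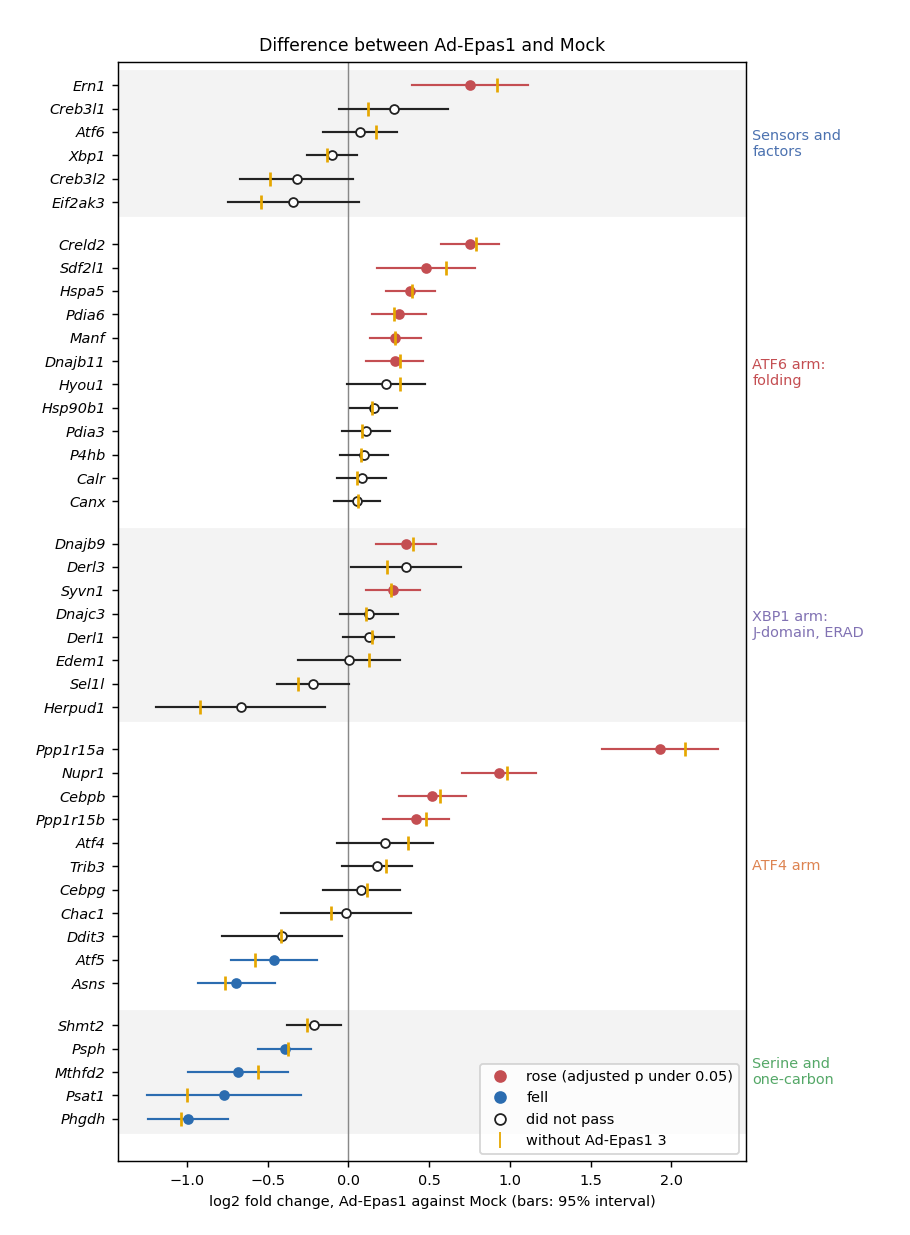
Log2 fold change of each member, Ad-Epas1 against Mock (horizontal axis), with its 95% interval from limma over 3 arrays a group. Red points rose, blue points fell, open points did not pass, and yellow ticks give the value without Ad-Epas1 replicate 3; Ppp1r15a rose by 1.93 and Phgdh stood at -0.99.

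Among the 6 genes of the sensors and their transcription factors, 1 rose and 5 did not pass, 16.7% called and so near the 16.3% of all genes. Ern1, the gene of the sensor that splices Xbp1, stood at 9.69, 9.51 and 9.51 on Mock replicates 1, 2 and 3 and at 10.48, 10.50 and 9.98 on Ad-Epas1 replicates 1, 2 and 3. All 3 Ad-Epas1 arrays were above all 3 Mock arrays, with replicate 3 the lowest of them. The rise was 1.68-fold, or 0.75 on the log2 scale (SE 0.15, adjusted p = 0.0197). Eif2ak3, the gene of PERK, stood at 9.06, 9.05 and 9.10 in Mock and at 8.45, 8.61 and 9.13 in Ad-Epas1. Its replicates 1 and 2 were below every Mock array and replicate 3 was above them, and the difference of -0.34 had a 95% interval from -0.75 to 0.06 (adjusted p = 0.215). Atf6 lay at 10.10 on every Mock array and at 10.30, 10.25 and 9.97 in Ad-Epas1, and its difference of 0.07 (interval -0.16 to 0.30) did not pass.

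Xbp1, whose transcript IRE1alpha splices and which is itself a target of ATF6, differed by -0.10 (interval -0.26 to 0.05). Its level was 11.29, 11.22 and 11.25 in Mock and 11.14, 11.11 and 11.21 in Ad-Epas1, so that the groups lay side by side without overlapping. Creb3l1 and Creb3l2 encode membrane-bound transcription factors related to ATF6 that act in matrix-secreting cells. Creb3l1 was at 10.36, 10.54 and 10.92 in Ad-Epas1 against 10.37, 10.29 and 10.31 in Mock, with replicate 3 the highest (difference 0.28, adjusted p = 0.220). Creb3l2 was at 9.61, 9.73 and 10.17 against 10.09, 10.22 and 10.15, with replicate 3 inside the Mock range (difference -0.32, adjusted p = 0.182).

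The ATF6 arm moved upward in part. Of 12 measured chaperones and folding enzymes of the ER lumen, 6 rose, 0 fell and 6 did not pass, with a median log2 fold change of 0.26. Beside that, 6.57% of all genes tested rose and 9.75% fell. In at least 1 fit that left out 1 array, 5 of the 6 calls were lost. Creld2, an ER-resident protein with EGF-like domains that is secreted under ER stress, stood at 10.89, 10.90 and 10.96 in Mock and at 11.63, 11.78 and 11.59 in Ad-Epas1. The groups lay well apart, and the rise was 1.68-fold (log2 0.75, SE 0.08, adjusted p = 0.00244). Hspa5 encodes BiP, the Hsp70 chaperone that holds the 3 sensors inactive. It stood at 10.80, 10.79 and 10.78 in Mock and at 11.13, 11.23 and 11.15 in Ad-Epas1, a rise of 0.38 on the log2 scale (SE 0.06, adjusted p = 0.0111). Mock arrays differed from each other far less than the groups did, and Ad-Epas1 replicate 3 lay with replicates 1 and 2.

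The other risen genes of this arm were Sdf2l1 (log2 fold change 0.48, adjusted p = 0.0473), a partner of the ER J-domain proteins, the disulfide isomerase gene Pdia6 (0.31, adjusted p = 0.0285), Manf (0.29, adjusted p = 0.0307), an ER stress-induced secreted factor that binds BiP, and Dnajb11 (0.29, adjusted p = 0.0461), a J-domain co-chaperone of BiP. The other folding genes of this arm did not pass. Hsp90b1 (GRP94) differed by 0.16, the lectin chaperone genes Calr and Canx by 0.08 and 0.06, and the oxidoreductase genes Pdia3 and P4hb by 0.11 and 0.10, none passing (adjusted p from 0.131 to 0.556). These 5 lay between 12.43 and 13.06 on all 6 arrays, near the top of the array scale (percentile 99.5 or higher of all genes). Whether array values compress differences at that level was not tested. For each of the 5, all Ad-Epas1 arrays were above all Mock arrays, by small gaps. Groups did not overlap, in either direction, for 39.7% of all genes. Hyou1, the large Hsp70-related nucleotide exchange factor of BiP, was at 11.13, 11.15 and 10.88 in Ad-Epas1 against 10.94, 10.79 and 10.72 in Mock, with Ad-Epas1 replicate 3 inside the Mock range (difference 0.23, adjusted p = 0.169).

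The XBP1 arm was mixed. ER-associated degradation draws misfolded proteins out of the ER for the proteasome. Of 8 genes of J-domain co-chaperones and of that degradation, 2 rose, 0 fell and 6 did not pass. That is 25.0% called, beside 16.3% of all genes, with a median of 0.13. Dnajb9, a J-domain co-chaperone known as a sensitive XBP1 target, stood at 10.80, 10.78 and 10.76 in Mock and at 11.10, 11.26 and 11.05 in Ad-Epas1, a rise of 0.36 (SE 0.08, adjusted p = 0.0250). Syvn1, the ubiquitin ligase HRD1, rose by 0.28 (SE 0.07, adjusted p = 0.0411). Its partner Sel1l went the other way in value, from 11.11, 11.15 and 11.12 in Mock to 10.79, 10.84 and 11.09 in Ad-Epas1, without passing (difference -0.22, adjusted p = 0.157). Herpud1, which organises the same ligase complex, showed the largest difference of the arm without passing. It stood at 10.55, 10.88 and 10.82 in Mock and at 9.74, 9.93 and 10.58 in Ad-Epas1, with replicates 1 and 2 below every Mock array and replicate 3 inside the Mock range (difference -0.67, interval -1.19 to -0.14, adjusted p = 0.0868). Dnajc3 (0.13), which inhibits PERK, the retrotranslocation genes Derl1 (0.13) and Derl3 (0.35), and the mannosidase-like gene Edem1 (0.00) did not pass (adjusted p from 0.140 to 0.990). Derl3 was the dimmest member, between 7.12 and 7.81 on the 6 arrays.

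The promoters of these arms were also searched for known sequence elements. The ER stress response element (ERSE), which ATF6 binds together with the factor NF-Y, reads CCAAT, then 9 bases of any kind, then CCACG. It was searched on both strands from 250 bases before to 50 bases after each RefSeq start, and the related ERSE-II (ATTGG, 1 base of any kind, CCACG) likewise. Promoters were in the RefSeq table (GRCm38.p6) for 36 of the 42 members, matched by gene identifier. ERSE was present for 9 of these 36 members, 25.0%, against 0.137% of 27025 genes in the table. The 9 comprised 6 of 10 genes of the ATF6 arm, 3 of 7 of the XBP1 arm and none in the other groups. ERSE-II was present for 2 of 36, beside 0.0444% of all genes. Several members are textbook targets from which these elements were described, so the share describes the list and not these arrays. The stretches that hold the elements are shown because they mark the genes whose values are compared next, each 5′ to 3′ on the strand of the gene, with 15 bases on either side, the element in capitals and coordinates on GRCm38.p6.
Hspa5 (chr2:34772010-34772058, plus strand): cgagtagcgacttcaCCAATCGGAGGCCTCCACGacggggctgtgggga
Creld2 (chr15:88819505-88819553, plus strand): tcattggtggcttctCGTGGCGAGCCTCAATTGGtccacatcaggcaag
Pdia6 (chr12:17266476-17266524, plus strand): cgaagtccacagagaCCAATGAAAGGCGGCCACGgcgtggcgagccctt
Calr (chr8:84847060-84847108, minus strand): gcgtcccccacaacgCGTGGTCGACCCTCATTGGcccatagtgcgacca
Canx (chr11:50325785-50325833, minus strand): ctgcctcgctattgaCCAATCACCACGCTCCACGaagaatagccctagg
Hsp90b1 (chr10:86705518-86705671, minus strand): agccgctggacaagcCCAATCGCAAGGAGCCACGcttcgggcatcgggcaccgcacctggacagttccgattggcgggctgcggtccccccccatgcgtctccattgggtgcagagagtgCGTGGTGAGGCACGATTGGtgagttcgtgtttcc
Syvn1 (chr19:6046517-6046565, plus strand): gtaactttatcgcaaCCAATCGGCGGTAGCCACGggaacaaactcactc
Dnajc3 (chr14:118937812-118937860, plus strand): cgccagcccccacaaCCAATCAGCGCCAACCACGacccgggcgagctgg
Derl3 (chr10:75893227-75893275, plus strand): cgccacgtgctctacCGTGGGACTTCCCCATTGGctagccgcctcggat
Dnajb11 (chr16:22857837-22857877, plus strand): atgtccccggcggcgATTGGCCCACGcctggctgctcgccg
Herpud1 (chr8:94386362-94386402, plus strand): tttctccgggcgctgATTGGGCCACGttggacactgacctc

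In Creld2, Calr and Derl3 the element is on the opposite strand and reads as its reverse complement. Hsp90b1 holds 2 ERSE copies, 1 in each orientation, and Dnajb11 and Herpud1 hold ERSE-II. No pair of elements overlapped. Among the 9 members with ERSE, 4 rose (Hspa5, Creld2, Pdia6 and Syvn1) and 5 did not pass (Calr, Canx, Hsp90b1, Dnajc3 and Derl3), all 9 with values above 0. Over all genes tested, 6.57% rose. Of the 2 with ERSE-II, Dnajb11 rose and Herpud1 did not pass at -0.67. The ERSE of Hspa5 begins 65 bases upstream of the start and that of Syvn1 44 bases upstream, while ERSE-II of Dnajb11 lies 7 bases downstream. Within the 2 arms, 11 members had either element and 6 members had promoters that held neither. Of the 11, 5 rose and 10 had values above 0, while of the 6, 2 rose and 5 had values above 0. The median log2 fold change was 0.28 for the 11 and 0.10 for the 6, over ranges that overlap (-0.67 to 0.75 and -0.22 to 0.48). For all genes tested it was 0.05. Whether the elements bear on the values was not tested. The XBP1-binding element TGACGTGG was in the promoters of 0 of 36 members and of 0.714% of all genes, and a search of 300 bases says nothing of sites farther away.

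The ATF4 arm held the largest single rise and moved in both directions. Of 11 regulators and targets of the integrated stress response, 4 rose, 2 fell and 5 did not pass, with a median of 0.18. That is 54.5% called, beside 16.3% of all genes. Ppp1r15a (GADD34) encodes the stress-induced subunit that leads protein phosphatase 1 to eIF2alpha. It stood at 8.57, 8.36 and 8.29 in Mock and at 10.46, 10.53 and 10.02 in Ad-Epas1, with every Ad-Epas1 array far above every Mock array. The rise was 3.81-fold (SE 0.15 on the log2 scale, adjusted p = 0.00114). Ppp1r15b, the constitutive subunit of the same phosphatase, rose by 0.42 (SE 0.09, adjusted p = 0.0216), from 10.16, 10.02 and 10.00 to 10.55, 10.54 and 10.35. Nupr1, a small stress-induced chromatin protein, rose 1.91-fold (log2 0.93, SE 0.10, adjusted p = 0.00270), from 11.09, 10.87 and 10.90 to 11.84, 12.03 and 11.79. Cebpb, a C/EBP transcription factor that also acts in inflammation, rose by 0.52 (SE 0.09, adjusted p = 0.0114), from 9.45, 9.35 and 9.25 to 9.99, 9.84 and 9.77. For each of these 4 genes all Ad-Epas1 arrays were above all Mock arrays, as the groups were apart for every called member. Of all genes, 39.7% had groups that did not overlap.

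The transcription factors at the centre of the arm did not share that rise. Atf4 itself was at 9.10, 9.09 and 9.04 in Mock and at 9.44, 9.45 and 9.02 in Ad-Epas1, so replicates 1 and 2 were higher than Mock and replicate 3 was not (difference 0.23, interval -0.07 to 0.52, adjusted p = 0.260). Ddit3, the gene of the pro-apoptotic factor CHOP, was at 9.37, 9.80 and 9.80 against 9.03, 9.45 and 9.26, with overlap through Mock replicate 1 (difference -0.41, adjusted p = 0.123). Atf5, translated under the same control as ATF4, fell by 0.46 (SE 0.11, adjusted p = 0.0368), from 9.47, 9.51 and 9.47 to 8.92, 8.89 and 9.27. Trib3, a pseudokinase that restrains ATF4 (0.18, adjusted p = 0.230), Chac1, which degrades glutathione (-0.02, adjusted p = 0.957), and Cebpg, a dimer partner of ATF4 (0.08, adjusted p = 0.622), did not pass. Chac1 spread the most within Mock, from 8.40 to 9.01. Asns, asparagine synthetase, a classical ATF4 target, stood at 10.55, 10.77 and 10.73 in Mock and at 9.85, 10.00 and 10.13 in Ad-Epas1, a fall to a level 1.62-fold lower (SE 0.10 on the log2 scale, adjusted p = 0.00687). The composite element that C/EBP and ATF4 bind (TGATGNAAT, both strands) was in 1 member promoter, that of Nupr1, among 36, beside 1.08% of all genes, and is shown for that reason.
Nupr1 (chr7:126625558-126625596, minus strand): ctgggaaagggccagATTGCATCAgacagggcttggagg

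**Figure D3:**
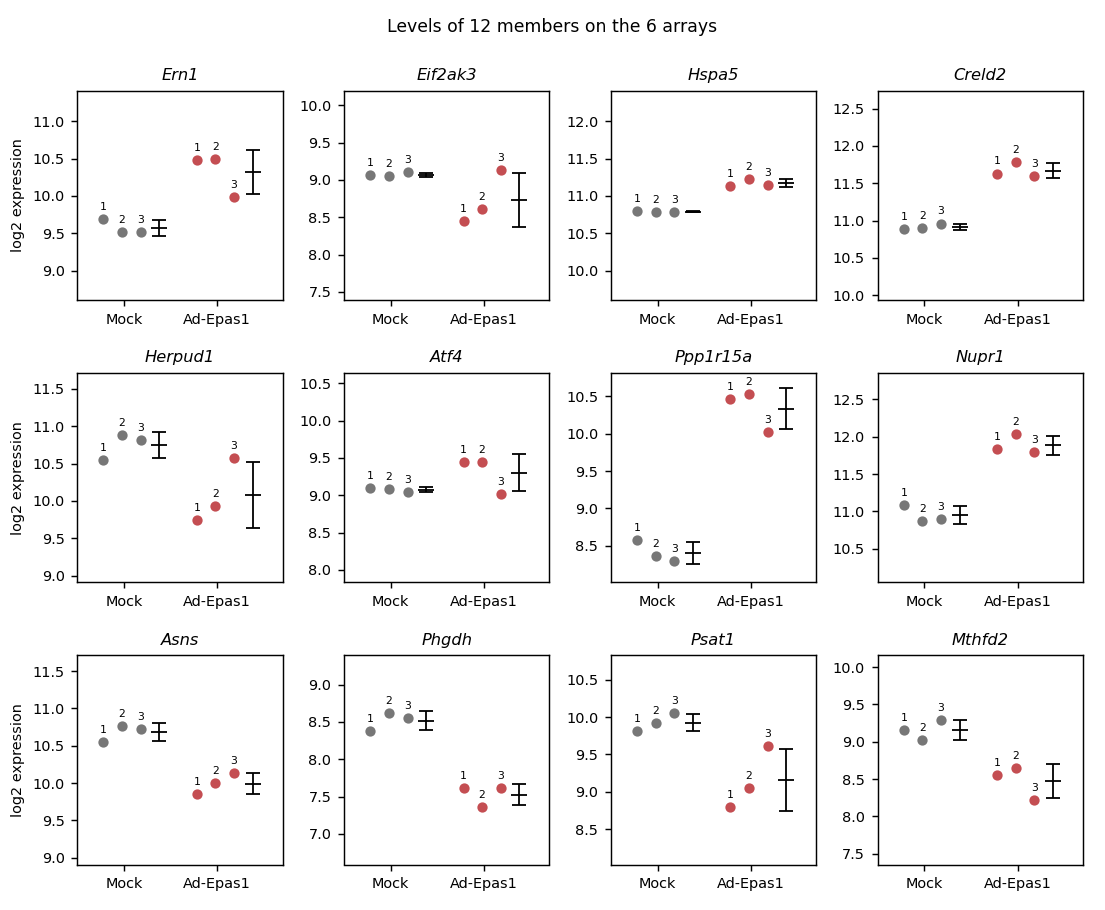
Log2 expression of 12 members on the 6 arrays, with numbers for the replicates and a bar for the mean ± SD of each group; every panel spans 2.8 log2 units. Ppp1r15a lies between 8.29 and 8.57 in Mock and between 10.02 and 10.53 in Ad-Epas1, while for Eif2ak3, Herpud1 and Atf4 Ad-Epas1 replicate 3 sits closer to the Mock arrays than replicates 1 and 2 do.

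Serine and one-carbon enzymes were lower in Ad-Epas1. Of 5 members, 4 fell, 0 rose and 1 did not pass, 80.0% called beside 16.3% of all genes. In all 5 every Ad-Epas1 array lay below every Mock array. Groups did not overlap, in either direction, for 39.7% of all genes. The median log2 fold change was -0.68. Phgdh, which commits glycolytic 3-phosphoglycerate to serine synthesis, stood at 8.38, 8.62 and 8.55 in Mock and at 7.61, 7.36 and 7.61 in Ad-Epas1. Its level was 1.99-fold lower (SE 0.10 on the log2 scale, adjusted p = 0.00273). Psat1, the aminotransferase of the next step, stood at 9.81, 9.92 and 10.05 and at 8.80, 9.05 and 9.61, 1.71-fold lower (SE 0.20, adjusted p = 0.0446), with replicate 3 closest to Mock. Psph, the phosphatase of the last step, fell by 0.40 (SE 0.07, adjusted p = 0.0130), from 8.10, 8.07 and 8.16 to 7.80, 7.68 and 7.68.

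All 3 steps from 3-phosphoglycerate to serine thus fell, with Psat1 losing its call when arrays were centred on their medians (adjusted p = 0.0511). Mthfd2, the mitochondrial folate dehydrogenase of dividing cells, stood at 9.16, 9.02 and 9.29 in Mock and at 8.55, 8.65 and 8.22 in Ad-Epas1. It was 1.60-fold lower (SE 0.13, adjusted p = 0.0167), and here replicate 3 was the lowest array. Shmt2, which splits serine to feed that pathway in mitochondria, differed by -0.21 (interval -0.38 to -0.05, adjusted p = 0.0851), from 11.61, 11.66 and 11.60 to 11.40, 11.34 and 11.49. Beside these falls, the 7 proliferation markers differed from their Mock means by medians of -2.75, -2.75 and -2.11 on Ad-Epas1 replicates 1, 2 and 3. For the 5 enzymes those medians were -0.61, -0.51 and -0.44.

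Ad-Epas1 replicate 3 decided several calls. Without it 14 members rose and 11 fell, beside 10.3% and 14.0% of all genes in that fit. Of the 19 members called over all arrays 18 kept their call and Syvn1 lost it (adjusted p = 0.0547). Newly called were 7 members. Atf4 rose by 0.37 (adjusted p = 0.0107) and Hyou1 by 0.32 (adjusted p = 0.0432). Herpud1 fell by 0.92 (adjusted p = 0.00299), Eif2ak3 by 0.54 (adjusted p = 0.00444), Creb3l2 by 0.49 (adjusted p = 0.00648), Sel1l by 0.31 (adjusted p = 0.0189) and Shmt2 by 0.26 (adjusted p = 0.0422). The PERK gene and the Herpud1 and Sel1l pair of the degradation complex were thus clearly lower on 2 of 3 Ad-Epas1 arrays, while on the third, the array with low macrophage transcripts, they differed from the Mock mean by 0.06, -0.17 and -0.04 in that order. Without that array, 2 of the 20 macrophage markers rose and 5 fell. Spread was wider in Ad-Epas1 than in Mock for 36 of the 42 members, with a median SD of 0.14 against 0.06. The matching share of all genes was not counted, so this wider spread cannot be called particular to the members.

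Lists of related genes place these members in their pathways. Of 12 measured genes of the other eIF2alpha kinases, eIF2 and eIF2B, 2 fell and 10 did not pass. That is 16.7% called and so near the 16.3% of all genes. Eif2s2, a subunit of eIF2, fell by 0.44 (adjusted p = 0.0177) and Eif2b3, a subunit of its exchange factor, by 0.42 (adjusted p = 0.0348), and each lost its call without several single arrays. Eif2ak2, the kinase PKR that senses viral RNA, differed by 0.30 (adjusted p = 0.0695). Eif2a, which is not the gene of eIF2alpha, differed by -0.34 (adjusted p = 0.0713). The gene of eIF2alpha, Eif2s1, was not among the genes measured. Of 22 other ATF4 and CHOP target genes, 8 rose, 5 fell and 9 did not pass, with a median of 0.33. That is 59.1% called, beside 16.3% of all genes. Slc7a5, the large neutral amino acid transporter, stood at 10.70, 11.08 and 11.02 in Mock and at 12.85, 12.86 and 12.86 in Ad-Epas1, a rise of 3.78-fold (SE 0.11 on the log2 scale, adjusted p = 0.000445). Sesn2, a leucine-sensing inhibitor of mTORC1, rose 2.14-fold and Ero1a, the ER oxidase that serves the disulfide isomerases and is also a hypoxia-responsive gene, 2.83-fold. Jdp2, an AP-1 repressor, was 2.48-fold lower (adjusted p = 0.00385). All 4 passed in each fit that left out 1 array.

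Most genes of transfer RNA charging were lower in Ad-Epas1. Of 18 measured cytosolic aminoacyl-tRNA synthetases, 10 fell, 1 rose and 7 did not pass, with a median of -0.32. That is 61.1% called, beside 16.3% of all genes. Vars, for valine, fell by 1.05 on the log2 scale (adjusted p = 0.00518), Iars, for isoleucine, fell by 0.58 (adjusted p = 0.00477), Lars, for leucine, fell by 0.48 (adjusted p = 0.00605) and Eprs, for glutamate and proline, fell by 0.45 (adjusted p = 0.00744). These 4 passed in each fit that left out 1 array, while the other called synthetases each lost their call in at least 1 such fit. The 1 that rose was Cars, for cysteine, by 0.57 (adjusted p = 0.0104, lost without Mock replicate 2 or 3), and it was named after its value was seen. Rars, for arginine, at 0.28 (adjusted p = 0.0720) and Nars, for asparagine, at 0.07 (adjusted p = 0.573) also had values above 0 without passing, and were likewise named after their values were seen. Of 12 other folate and serine pathway genes, 5 fell, 1 rose and 6 did not pass, with a median of -0.35. Beside that, 9.75% of all genes tested fell and 6.57% rose. Mtr, methionine synthase, fell by 0.56 (adjusted p = 0.00329), Sfxn1, the mitochondrial serine carrier, by 0.62 (adjusted p = 0.00631) and Mthfd1, the cytosolic trifunctional folate enzyme, by 0.93 (adjusted p = 0.0174, lost without any one of Mock replicates 2 and 3 and Ad-Epas1 replicate 2). Aldh1l2, the mitochondrial formyltetrahydrofolate dehydrogenase, rose 2.48-fold, from 9.53, 9.17 and 9.29 to 10.74, 10.73 and 10.43 (adjusted p = 0.00224), against the direction of Mthfd2 in the same compartment.

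**Figure D4:**
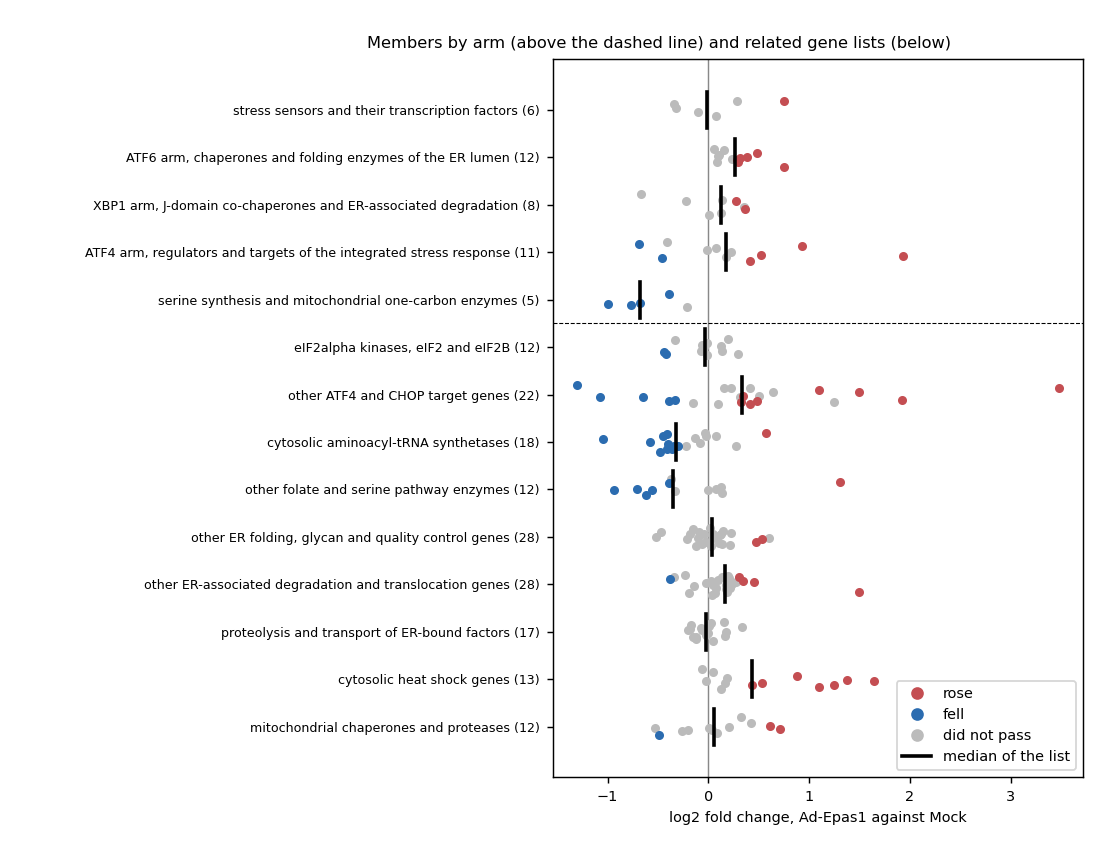
Log2 fold change, Ad-Epas1 against Mock (horizontal axis), of the members by role and of 9 related gene lists, with the number measured in brackets. Each point is a gene, red where it rose, blue where it fell and grey where it did not pass, and the black bar is the list's median, which is 0.43 for cytosolic heat shock genes, -0.32 for aminoacyl-tRNA synthetases and 0.03 for other ER folding genes.

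Of 28 other ER folding, glycan and quality control genes 2 rose, 0 fell and 26 did not pass, 7.1% called beside 16.3% of all genes, with a median of 0.03. Prkcsh, the regulatory subunit of glucosidase II, rose by 0.53 (adjusted p = 0.00412), and its catalytic partner Ganab differed by -0.21 (adjusted p = 0.0642). Fkbp11, an ER prolyl isomerase, rose by 0.47 (adjusted p = 0.0310, lost without any Mock array or Ad-Epas1 replicate 1), and Creld1, the relative of Creld2, differed by 0.60 (adjusted p = 0.0501). Of 28 other degradation and translocation genes 4 rose, 1 fell and 23 did not pass, 17.9% called and so near the share of all genes, with a median of 0.16. Wfs1, the ER membrane protein wolframin and a known UPR target, rose 2.82-fold, from 9.78, 9.70 and 9.69 to 11.71, 11.25 and 10.71 (adjusted p = 0.00903). Edem3, a relative of Edem1 with mannosidase activity, rose by 0.45 (adjusted p = 0.00642), Ufd1, of the extraction complex, by 0.34 (adjusted p = 0.0327), and Sec61b, of the translocation channel, fell by 0.38 (adjusted p = 0.0227) at levels partly below the 6.62 given above, the last pair losing their calls without single arrays of either group.

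Among 17 genes that process or transport ER-bound factors, 0 passed with limma over all arrays, beside 3 at an unadjusted p under 0.05, which were the COPII coat gene Sec23b (0.33, adjusted p = 0.0846), the coat's GTPase gene Sar1b (0.17, adjusted p = 0.136) and Mbtps2, the protease of the second ATF6 cut (-0.15, adjusted p = 0.144). Sec24a, another coat gene, differed by 0.16 (adjusted p = 0.169). Without Ad-Epas1 replicate 3, 1 of the 17 rose, Sec23b (adjusted p = 0.00863), and 2 fell. Cytosolic chaperones moved more. Of 13 measured heat shock genes 7 rose, 0 fell and 6 did not pass, with a median of 0.43. That is 53.8% called, beside 16.3% of all genes. Hsph1, an Hsp110 exchange factor, rose 3.11-fold, from 9.55, 9.74 and 9.49 to 11.35, 11.50 and 10.86 (adjusted p = 0.00273). Hspa1a and Hspa1b, the inducible Hsp70 genes, stood 2.37-fold and 2.59-fold higher (adjusted p = 0.00361 and 0.00411), but these genes are near-identical copies, and how far their probe sets tell them apart was not tested. Hspb8, a small heat shock protein, rose by 0.88 (adjusted p = 0.00668). Of 12 mitochondrial chaperones and proteases 2 rose, 1 fell and 9 did not pass, 25.0% called beside 16.3% of all genes. Clpx, the unfoldase of the matrix protease, rose by 0.71 (adjusted p = 0.0131), Afg3l2, an inner membrane protease, by 0.61 (adjusted p = 0.0284), and Hspd1, the chaperonin, fell by 0.49 (adjusted p = 0.0133), each losing its call without at least 1 array.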

How the data were processed

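The authors deposited a log2 expression value for each probe set on each array, made by RMA with, per the submitters' processing notes, Affymetrix Expression Console 1.3.1. RMA equalizes the distributions of the arrays, which hides any shift common to most genes and compresses large differences. The probe sets' build was not given in the sources used here.

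Of 41345 probe sets, 23521 had 1 gene symbol and 1814 several (not named). The brightest probe set stood for a gene (22180 genes, no filter). Only Edem1 among the members had more than 1. Both groups were fitted in limma 3.58.1 under R 4.3.3 (lmFit, eBayes, two-sided, Benjamini-Hochberg over all genes, threshold 0.05), a procedure tested on simulated data. Those data had the same spread in both groups and no outlying array, so they say nothing of calls that hang on a single array. An exact permutation test of 3 against 3 cannot go below p = 0.1. The number of arrays limits the precision, since read depth does not apply.

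The members and the gene lists were chosen with earlier results of these data known. Of 179 related genes, 162 were measured, 7 under newer names, and the others were not analysed here. All measured members are named, and of each related list and of the macrophage and proliferation markers up to 4 genes with the smallest p. Cars, Nars, Rars, Cd14, Lyz2 and the fibroblast markers were named outside that rule. Retrieval signals of member proteins were not analysed here. Alternatives left out arrays, rescaled them, weighted them, filtered by level, blocked on replicate number, changed the prior and averaged probe sets.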

Additional observations from a re-analysis of the deposited data

How the results depend on the processing

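The number of members that rose (13) and fell (6) depended chiefly on which arrays entered. Leaving out 1 array gave 3 to 14 rising members, 2 to 11 falling members and 1181 to 5390 called genes in all, against 3620. With Mock replicate 1 and Ad-Epas1 replicate 3 both left out, 11 members fell and 6000 genes were called. With array weights 12 members fell and 7791 genes were called. With the replicate number as a block 8 members rose, Pdia6, Manf, Dnajb11, Dnajb9, Syvn1 and Atf5 losing their calls and Ddit3 gaining one (adjusted p = 0.0367), but the numbers were not taken to pair the samples, since deviations of same-numbered arrays correlated at 0.34, -0.19 and 0.21 and not every array correlated best with its own number. Centring, another quantile step, a level filter, a trended robust prior and the mean over probe sets kept both counts within 1.5 times, although Psat1 lost its call under either rescaling and Atf5 under the quantile step. No called member changed sign, but their groups did not overlap, so leaving out or weighting arrays could not have changed it. The causes were not tested. Depth does not apply to arrays, and no member lay below the receptor reference level.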
